A study of Mus musculus with 12 samples.

Results

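Peg10 and Sgce are neighbouring imprinted genes of mouse chromosome 6 that start back to back and share one CpG island. Their methylation levels were taken from every feature listed for either gene, together with the CpG islands and island shores that overlapped the genes or lay within 2 kb of them. This gave 8 of the 176831 features that had a level in at least 1 library: 4 of Peg10 (promoter, 5' UTR, exons, 3' UTR), 3 of Sgce (promoter, introns, 3' UTR), 1 CpG island and 0 shores. All 8 had a level in every one of the 12 libraries, as did 133311 features in all. The Sgce promoter carried the same value as the CpG island in all 12 libraries, and the Sgce introns carried the same value as the Sgce 3' UTR, so that 6 distinct profiles remained. Each of these is counted once below, although the Sgce promoter, the Peg10 promoter and the Peg10 5' UTR adjoin or overlap and may be read from the same CpG sites, so that they are not independent of each other.

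The study compared mouse cells of strain C57BL6 by reduced representation bisulfite sequencing, in which DNA is cut with MspI and the methylated share of CpG sites is read near the cuts. There were 6 groups of 2 libraries. ESCs were female embryonic stem cells from fertilized embryos, and pESCs were parthenogenetic embryonic stem cells from chemically activated oocytes, with no paternal genome. According to the study's methods both carried an Actin-GFP transgene. E9.5 and E12.5 PGCs were primordial germ cells sorted from female embryos at embryonic day 9.5 or 12.5. ESC-PGCLCs and pESC-PGCLCs were germ cell-like cells made from ESCs and pESCs by 2 days of induction to epiblast-like cells and 4 days with BMP4 (500 ng/ml), SCF, EGF and LIF, then sorted by surface markers. Both PGCLC groups therefore carry the limits of the lines they came from, and the labels do not say whether replicates were separate cultures or embryos, so p-values measure only the spread between these libraries. The files held no expression values, so the labelled cell types could not be checked against marker genes. Read depth was unknown. Libraries listed 144375 to 166476 features, and the mean level over the features common to all libraries ran from 21.3% (ESC replicate 2; 25.9% in replicate 1) to 36.5% (E9.5 PGC replicate 1).

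Imprinted genes are expressed from one parental copy, which is set by methylation laid down in the egg or the sperm. At Peg10 and Sgce the egg deposits the mark, and both genes are expressed from the unmethylated paternal copy. A body cell with one methylated and one unmethylated copy therefore carries an intermediate level across such a region. Primordial germ cells erase these marks before new ones are laid down. Peg10 derives from a retrotransposon, encodes gag-like and pol-like proteins by a ribosomal frameshift and is needed for the placenta. Sgce encodes epsilon-sarcoglycan, a membrane glycoprotein of muscle and brain.

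In GRCm38 coordinates with GENCODE M21 gene models, Sgce (ENSMUSG00000004631) covers chr6:4674350-4747207 on the minus strand and Peg10 (ENSMUSG00000092035) covers chr6:4747306-4760517 on the plus strand. The gap between their start sites is 98 bp long and holds 13 CpG sites. The CpG island, chr6:4747209-4748412, is 1204 bp long and holds 110 CpG sites, or 9.14 per 100 bp against a median of 10.1 over 14559 islands. It takes in 97 bp of the gap, all 273 bp of Peg10 exon 1, which is 5' UTR, and 834 bp of Peg10 intron 1. Its 4 MspI sites, spelled CCGG, all lie in exon 1, from 48 to 217 bp after the Peg10 start, and the parts in the gap and in the intron hold 0. Of 960 islands within 10% of its length, 99.4% held more MspI sites than this island (median 16), while 99.7% of all islands held at least 1. The 30 bases around the second and the third of these sites are shown because the levels of the promoters, island and 5' UTR are read next to such cuts (chr6:4747481-4747510, plus strand, CCGG in capitals):
MspI sites in Peg10 exon 1: ctgcggtCCGGagccttctCCGGaccgcgg

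Peg10 intron 1 carries the largest share of the island's CpG sites, 73 of 110, and a tandem repeat. Its most frequent run of 14 bases occurs 8 times, 679 to 1055 bp after the Peg10 start, with a median spacing of 29 bp, and each copy has 2 CpG sites. None of the other islands holds this run on either strand. Tandem repeats of other sequence were not counted in them, so this does not show that the repeat is particular to this island. The first 300 bases of the repeat are shown because they hold 6 of the 8 copies, marked by capitals (chr6:4747975-4748274, plus strand):
Repeat in Peg10 intron 1: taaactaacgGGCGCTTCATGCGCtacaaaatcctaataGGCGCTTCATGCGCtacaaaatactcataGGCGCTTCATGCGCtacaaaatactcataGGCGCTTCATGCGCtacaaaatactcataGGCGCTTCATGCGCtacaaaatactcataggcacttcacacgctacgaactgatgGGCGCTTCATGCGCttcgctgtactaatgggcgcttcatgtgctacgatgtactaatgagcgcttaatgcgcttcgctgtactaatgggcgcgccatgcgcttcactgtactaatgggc

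ZFP57, a zinc finger protein, keeps imprints methylated in the early embryo and binds the methylated core TGCCGC. The island holds this core 2 times on the plus strand, in the gap and in intron 1, and its reverse complement 0 times. On either strand, 52.6% of all islands hold at least 1 core and 22.9% at least 2, and among the 960 islands of like length 49.6% hold at least 2. The intron copy is shown as the motif nearest to the repeat, with the core in capitals (chr6:4747912-4747941, plus strand):
ZFP57 core in Peg10 intron 1: tgcactcttaagTGCCGCgctacgaacgga

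**Figure D1:**
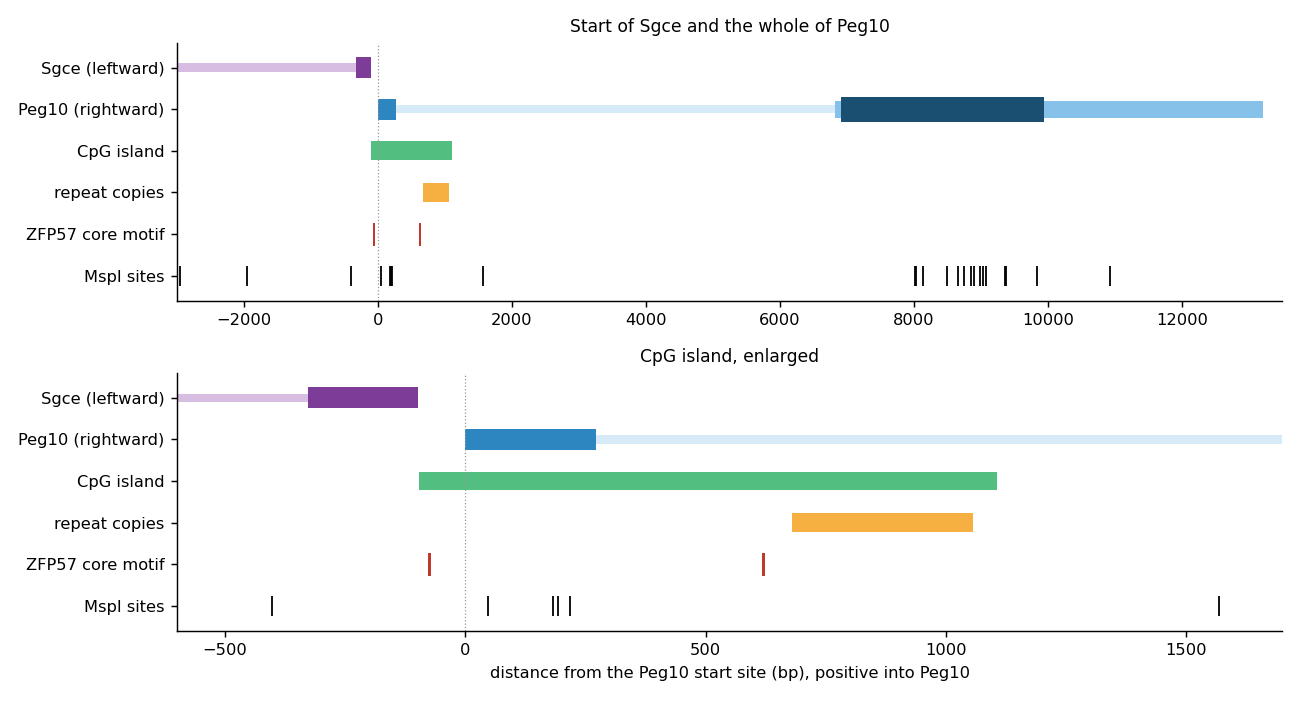
Map of the start of Sgce and the whole of Peg10, with an enlargement of the CpG island; the horizontal axis is the distance in bp from the Peg10 start site, boxes are annotated exons, the coding span, the island and the repeat, and ticks are MspI sites and ZFP57 core motifs. The 4 MspI sites of the island lie in Peg10 exon 1, and 14 of the 15 sites of Peg10 exon 2 lie in the annotated coding span.

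The promoters of Peg10 and Sgce were nearly unmethylated in ESCs and methylated in every other group. The Sgce promoter, with the same values as the CpG island, stood at 3.25% and 3.36% in the ESC libraries, 39.3% and 35.4% in pESCs, 52.8% and 56.0% in E9.5 PGCs, and 28.6% and 32.4% in E12.5 PGCs. ESC-PGCLCs stood there at 36.6% and 33.6%, and pESC-PGCLCs at 42.7% and 40.8%. The Peg10 promoter stood at 3.25% and 3.52% in ESCs, 38.9% and 34.6% in pESCs, 50.9% and 54.8% in E9.5 PGCs, and 27.7% and 31.5% in E12.5 PGCs. ESC-PGCLCs stood there at 35.7% and 32.9%, and pESC-PGCLCs at 41.8% and 40.5%. In both, the order from low to high was ESC, E12.5 PGC, ESC-PGCLC, pESC, pESC-PGCLC and E9.5 PGC. Only ESC-PGCLCs and pESCs overlapped among neighbours in that order. The next smallest gaps between neighbours were under the spread within groups: E12.5 PGCs and ESC-PGCLCs were 1.16 points apart at the Sgce promoter, and pESCs and pESC-PGCLCs 1.49 points apart. The ESCs lay 25.2 points below the nearest library of any other group at the Sgce promoter and 24.2 points at the Peg10 promoter.

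The values of both promoters were close, which the shared MspI sites of exon 1 may build in. Across the 12 libraries the Sgce promoter differed from the Peg10 promoter by -0.155 to 1.90 points, with a mean of 0.727 points. The Peg10 5' UTR, which takes in exon 1, followed the same order except that pESCs fell below ESC-PGCLCs. It stood at 7.14% and 4.10% in ESCs, 39.7% and 35.0% in pESCs, 57.2% and 60.0% in E9.5 PGCs, and 32.1% and 35.7% in E12.5 PGCs. ESC-PGCLCs stood there at 40.4% and 37.6%, and pESC-PGCLCs at 44.6% and 43.0%. Each of its levels was 0.376 to 6.32 points above that of the Peg10 promoter in the same library.

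The rest of Peg10 was more methylated and less contrasted. The Peg10 exons stood at 34.4% and 27.7% in ESCs, 53.3% and 46.2% in pESCs, 71.9% and 73.0% in E9.5 PGCs, and 45.5% and 45.6% in E12.5 PGCs. ESC-PGCLCs stood there at 55.4% and 53.8%, and pESC-PGCLCs at 55.5% and 53.9%. The Peg10 3' UTR stood at 61.0% and 50.3% in ESCs, 63.96% and 58.03% in pESCs, 85.8% in both E9.5 PGC libraries, and 59.3% and 56.3% in E12.5 PGCs. ESC-PGCLCs stood there at 69.4% and 69.9%, and pESC-PGCLCs at 65.0% and 64.9%. In one annotated transcript the 3' UTR begins inside the coding part of the others, where most MspI sites of exon 2 lie. The 3' UTR was above the promoter in all 12 libraries, by 57.8 and 46.8 points in ESCs and by 23.2 to 37.0 points elsewhere. ESC replicate 1 was 10.7 points above replicate 2 in this feature, 6.73 points in the exons and 0.270 points in the promoter; the mean over all common features differed in the same direction, and its part in these differences was not tested.

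The Sgce introns, with the same values as the Sgce 3' UTR, set both stem cell groups apart from the germ cells. They stood at 13.9% and 15.4% in ESCs and 17.6% and 18.0% in pESCs. In the germ cells they stood at 80.7% and 79.6% (E9.5 PGCs), 52.8% and 54.9% (E12.5 PGCs), 59.8% and 61.7% (ESC-PGCLCs), and 53.7% and 60.2% (pESC-PGCLCs). Of the 29 MspI sites in Sgce, 4 lie in an annotated exon and 1 in an annotated 3' UTR, and the files do not say which of them the level was read from. The introns differed from the Sgce promoter by -21.7 and -17.5 points in pESCs, and by 10.6 to 28.2 points in the 10 other libraries.

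**Figure D2:**
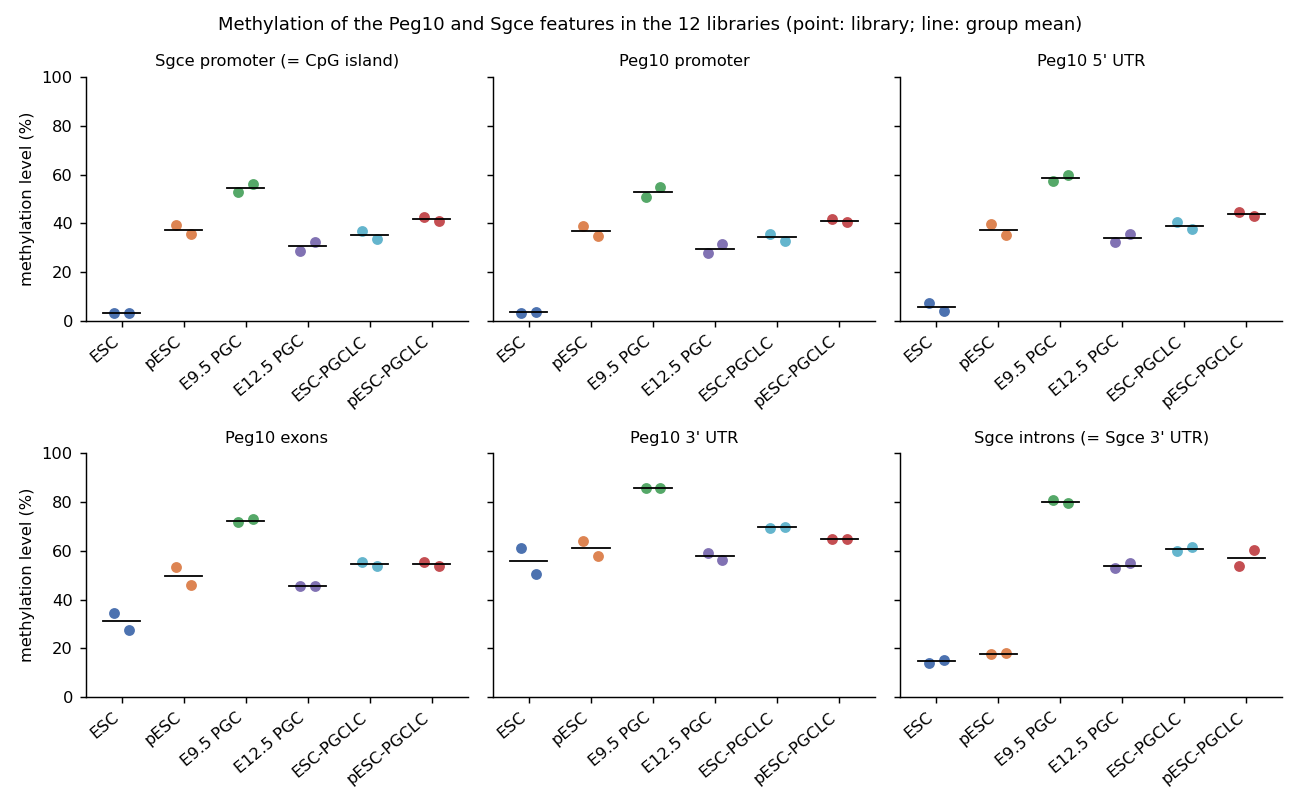
Methylation level in percent of the 6 distinct Peg10 and Sgce features; each point is a library, replicate 1 left and replicate 2 right, and each line is the mean of a group (n = 2). ESCs lie between 3.25% and 3.52% at both promoters, where every other library is at 27.7% or above, while in the Sgce introns ESCs and pESCs lie together, at 18.0% or below.

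Within its class, the shared island ranked high in every group that carried methylation there. In pESCs its mean level of 37.4% was above 98.3% of 13715 islands, in E9.5 PGCs (54.4%) above 94.97%, and in the other germ cell groups above 94.8% to 95.5%. In ESCs it stood at 3.30%, above 87.5% of islands, with a median island at 1.83%.

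The pESC and ESC comparison set cells with no paternal genome against cells from fertilized embryos. Parental origin cannot be told apart here from other differences between these cells. At the shared start of both genes, pESCs carried 34.1 ± 1.94 points more methylation than ESCs at the Sgce promoter and 33.4 ± 2.14 points more at the Peg10 promoter (difference of means ± SE, n = 2 and 2), and the groups did not overlap. From the largest difference down, these ranked 11 and 12 of 19766 promoters, and the island ranked 7 of 13987. The Peg10 5' UTR was 31.7 ± 2.78 points higher (rank 4 of 11201) and the Peg10 exons 18.7 ± 4.91 points higher. The Peg10 3' UTR, 5.34 ± 6.11 points higher, overlapped between the groups and lay at 10.7 points without ESC replicate 1 and at -0.00481 without replicate 2. The Sgce introns differed by 3.17 ± 0.795 points. The median over all features was -0.00800 points.

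None of these differences passed the call used here, an adjusted p under 0.05 with group means at least 10 points apart (limma on log2 odds, Benjamini-Hochberg over all features). Both promoters had an adjusted p of 0.0995, the 5' UTR 0.262 and the other profiles 1.0. In this fit of 4 libraries, 0 of 148012 features passed, which is 0.0%, although 2054 had an unadjusted p under 0.05, among them 4 of the 6 profiles. No overlap with pESCs at least 10 points higher was met by 0.71% of all features (1051) and by 4 of the 6 profiles. When the spread was estimated from all 12 libraries, 70 features passed. Of these, 3 were the Sgce promoter (limma adjusted p = 5.22e-05), the Peg10 promoter (6.64e-05) and the Peg10 5' UTR (0.00134). That fit pools unequal spreads. Over common features, replicates differed on average by 6.16 points in ESCs, 3.29 in pESCs and 2.19 to 2.52 in the germ cell groups. Without pESC replicate 1, which leaves 1 pESC library, the differences of the same 3 profiles were 32.1, 31.3 and 29.4 points. An exact permutation test of 2 against 2 libraries cannot give a two-sided p under 0.333.

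Between embryonic day 9.5 and 12.5, when germ cells lose imprints, every Peg10 and Sgce profile fell. The Sgce promoter fell by 23.9 ± 2.49 points (limma adjusted p = 0.000256) and the Peg10 promoter fell by 23.3 ± 2.70 points (adjusted p = 0.000282). The Peg10 5' UTR fell by 24.7 points, the exons fell by 26.9, the 3' UTR fell by 28.0 and the Sgce introns fell by 26.3, with adjusted p of 7.47e-05 to 0.000183. Thus 6 of 6 profiles passed the call, where 49.6% of 137202 features did. The median difference was -1.49 points over promoters, -0.101 over islands, -23.8 over 3' UTRs and -16.6 over introns.

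Because most of the genome lost methylation, the fall was also set against the library as a whole. The median feature moved by -0.864 on the log2 odds scale. Each library was also centred on its own median, which is not the same as subtracting that movement. The promoters then differed by -0.298 (Sgce) and -0.272 (Peg10) log2 odds units. With limma adjusted p of 0.107 and 0.146 neither was called, and 3 of 6 profiles were. At E12.5 the promoters kept 56.1% (Sgce) and 56.0% (Peg10) of their E9.5 level. The median over 6554 promoters with at least 20% at E9.5 was 63.5% (quartiles 56.7% and 69.5%). Both values lay just under the lower quartile. Over pairs of single libraries they ran from 51.0% to 61.4% (Sgce) and 50.6% to 61.8% (Peg10), on both sides of that quartile. The Peg10 exons kept 62.9%, its 3' UTR 67.4% and the Sgce introns 67.2%, where the medians of their classes were 62.2%, 64.5% and 63.0%.

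The PGCLCs were compared with both stages of PGCs to place them along this course. Against E9.5 PGCs, ESC-PGCLCs were lower in 6 of 6 profiles by the call, which 29.8% of features passed. The difference was -19.3 ± 2.19 points at the Sgce promoter (limma adjusted p = 0.00190) and -18.6 ± 2.41 points at the Peg10 promoter (adjusted p = 0.00211), and from -19.6 to -16.1 points over the 6 profiles. The pESC-PGCLCs were also lower in 6 of 6 profiles, with 40.3% of features called. Here the promoters had the smallest differences, -12.6 ± 1.84 points at Sgce (limma adjusted p = 0.00600) and -11.8 ± 2.05 points at Peg10 (adjusted p = 0.00819), and the Sgce introns the largest, -23.2 ± 3.30 points. The median feature moved by -0.440 log2 odds units in the first comparison and -0.597 in the second. Each library was also centred on its own median, which is not the same as subtracting that movement. The Sgce promoter then differed from E9.5 PGCs by -0.456 in ESC-PGCLCs and by 0.0833 in pESC-PGCLCs. The Peg10 promoter differed by -0.419 and 0.132, so that the direction in pESC-PGCLCs depended on the scaling. Centring left 0 of 6 profiles called in ESC-PGCLCs and 1 of 6 in pESC-PGCLCs. The call for the Peg10 promoter in pESC-PGCLCs was lost without E9.5 PGC replicate 2, at -9.81 points.

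Against E12.5 PGCs the PGCLC levels were closer. ESC-PGCLCs were 4.62 ± 2.47 points above E12.5 PGCs at the Sgce promoter and 4.72 ± 2.34 points at the Peg10 promoter (limma adjusted p = 0.149 at the latter, and neither called), with 95% intervals of -0.05 to 0.64 and -0.04 to 0.65 on the log2 odds scale; centring turned both below zero, to -0.158 and -0.148. Without E12.5 PGC replicate 1 the differences were 2.68 and 2.86 points. Only the Peg10 3' UTR passed, 11.9 ± 1.51 points higher (adjusted p = 0.00451), so 1 of 6 profiles was called where 22.8% of features were. This call was lost in the fit of all 12 libraries (adjusted p = 0.0627) and after centring (0.161). Over 3' UTRs the median difference was 9.81 points. In pESC-PGCLCs both promoters passed against E12.5 PGCs, the Sgce promoter 11.2 ± 2.16 points higher (adjusted p = 0.0332) and the Peg10 promoter 11.5 ± 1.97 points higher (adjusted p = 0.0315). The other profiles were 3.09 to 9.90 points higher. Thus 2 of 6 profiles were called, where 7.1% of features were, and the shared island ranked 77 of 13799. Both promoter calls were lost with the replicate block (adjusted p of 0.0597 and 0.0563), in a fit of all 12 libraries (0.124 and 0.122), after centring (0.167 and 0.161) and whichever of the 4 libraries was left out.

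The direct comparison of pESC-PGCLCs with ESC-PGCLCs asked whether the origin of the cells remained visible after induction. The Peg10 and Sgce promoters did not overlap between the groups, being 6.79 ± 1.55 and 6.63 ± 1.80 points higher in pESC-PGCLCs, but neither passed (limma adjusted p of 0.209 and 0.215). The 95% interval of the Peg10 promoter difference was 0.06 to 0.75 on the log2 odds scale. The Peg10 5' UTR was 4.78 points higher, its exons 0.0611 points higher, and the differences were -4.72 points in its 3' UTR and -3.86 points in the Sgce introns. Thus 0 of 6 profiles passed, 3 of them with an unadjusted p under 0.05, in a comparison where 0.0948% of features were called. The median promoter differed by -0.283 points.

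**Figure D3:**
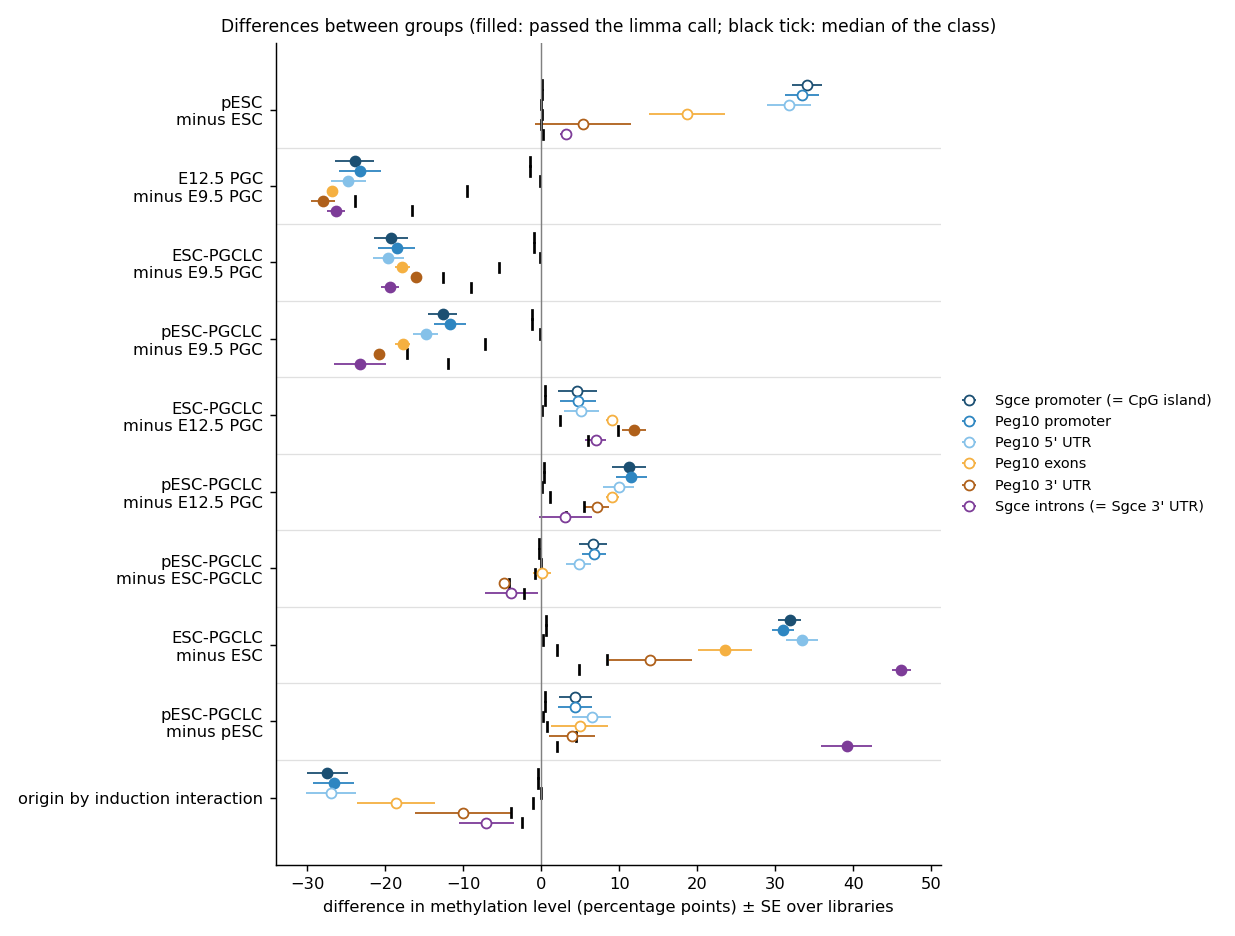
Difference in methylation level in percentage points for the 6 distinct Peg10 and Sgce features in the 10 comparisons (n = 2 libraries per group); points are differences of group means, bars their SE, filled points passed the limma call and black ticks mark the median of all features of the same class. The promoters and 5' UTR lie 31.7 to 34.1 points above zero between pESCs and ESCs, while all 6 profiles lie below zero between E12.5 and E9.5 PGCs.

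On induction of PGCLCs both promoters rose from ESCs, and no change passed the call at them from pESCs. From ESCs to ESC-PGCLCs the Sgce promoter rose by 31.8 ± 1.53 points (limma adjusted p = 8.46e-05) and the Peg10 promoter by 30.9 ± 1.41 points (adjusted p = 8.85e-05). The Peg10 5' UTR rose by 33.4 points, its exons by 23.6 and the Sgce introns by 46.2, while the 3' UTR was 13.99 ± 5.35 points higher without passing (adjusted p = 0.0678). The exon call was lost without ESC-PGCLC replicate 1 (adjusted p = 0.0560), and the 3' UTR passed without ESC replicate 1, at 19.3 points. Thus 5 of 6 profiles were called, with 14.6% of 136848 features. From pESCs to pESC-PGCLCs the promoters differed by 4.38 ± 2.16 (Sgce) and 4.33 ± 2.23 points (Peg10), with limma adjusted p of 0.560 and 0.567. On the log2 odds scale they differed by 0.260 and 0.258, where the median feature moved by 0.168. Centring each library on its own median turned both below zero, to -0.659 and -0.661 log2 odds units. After that centring 39608 of 45543 calls over all features were lower. Without pESC replicate 2 the promoter differences were 2.45 and 2.19 points. In Peg10 the 5' UTR was 6.45 points higher, the exons 4.95 and the 3' UTR 3.93, and none of these passed (limma adjusted p of 0.529 to 0.715). The Sgce introns alone passed the call, 39.1 ± 3.25 points higher (limma adjusted p = 0.000419) and rank 86 of 18809 introns, so 1 of 6 profiles was called, with 9.66% of features. The median promoter differed by 0.587 points in the first comparison and 0.435 in the second.

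The difference between these courses was itself tested as an interaction of cell origin and induction. By construction this term is the difference between the 2 PGCLC groups less that between pESCs and ESCs. At the Sgce promoter those were 6.63 and 34.1 points, and neither passed in its own fit. The term is therefore not a result separate from the pESC and ESC difference. The change from pESCs to pESC-PGCLCs minus that from ESCs to ESC-PGCLCs was -27.4 ± 2.65 points at the Sgce promoter (limma adjusted p = 0.0266) and -26.6 ± 2.64 points at the Peg10 promoter (adjusted p = 0.0279). Of 6 profiles 2 passed, where 0.0365% of features (50) did. The Peg10 5' UTR had a difference of nearly the same size, -27.0 ± 3.22 points, and did not pass (adjusted p = 0.183). The exons were at -18.6 points, the 3' UTR at -10.1 and the Sgce introns at -7.03. Both promoter calls were lost with an offset of 0.1, on untransformed levels and whichever of the 8 libraries was left out, where adjusted p lay between 0.0516 and 0.205; the Peg10 call was also lost after centring (0.0560) and with the replicate block (0.0551).

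The islands nearest to the pair were low in every group. The 5 other CpG islands whose midpoint lay within 1 Mb of the start sites had levels of 0.932% to 4.10% in every library. Of the 7 shores in this window, 6 stayed between 0.0% and 16.1%, and the shore 552 kb from the pair ran from 37.1% to 55.2%. Among 13 neighbouring genes fixed as a list, 6 had a promoter level in all libraries. Calcr (the calcitonin receptor), Bet1, Casd1, Ppp1r9a and Dync1i1 had group means of 1.01% to 12.8%, and Pon2, a paraoxonase, of 40.7% to 60.3%. Between pESCs and ESCs the 7 neighbouring promoters tested differed by -4.67 to 1.21 points (median -0.182, against 0.0265 over all promoters). Of the 7, 0 were called and 0 had an unadjusted p under 0.05, where 0 of 19766 promoters were called. The lowest was Col1a2, which had a promoter level in 9 libraries. On induction the 7 ran from -18.6 (Col1a2) to 3.51 points from ESCs and from -14.3 (Col1a2) to 1.46 from pESCs. Col1a2 did not overlap in either, but 0 of the 7 were called, where 12.9% and 9.23% of all promoters were. Pon2 was the 1 of 6 neighbouring promoters called between E12.5 and E9.5 PGCs (-19.6 points), where 32.2% of all promoters were called. It was also the 1 called in ESC-PGCLCs and in pESC-PGCLCs against E9.5 PGCs, with 21.1% and 27.4% of all promoters. After centring, 5, 3 and 2 of the 6 were called higher in these comparisons and 0 lower. These calls are relative to a falling library median. Before centring, Calcr, Bet1, Casd1 and Dync1i1 differed by -0.467 to 0.555 points between E12.5 and E9.5 PGCs, and Ppp1r9a by -5.39.

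**Figure D4:**
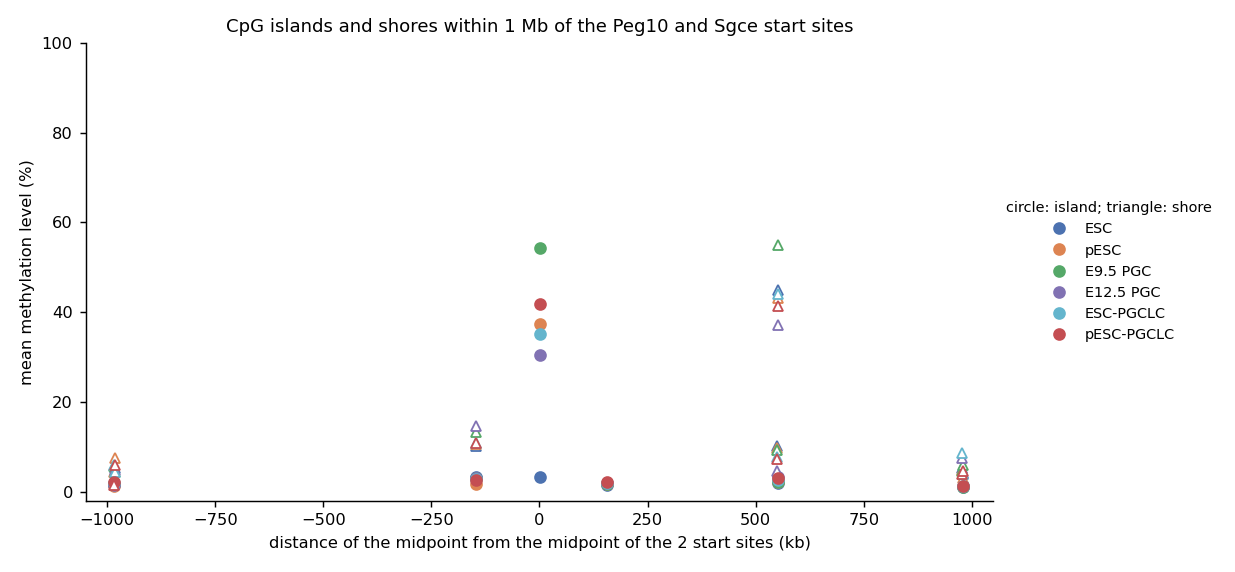
Mean methylation level in percent of CpG islands (filled circles) and shores (open triangles) against the distance in kb from the midpoint of the Peg10 and Sgce start sites; colours are the 6 groups. The shared island ranges from 3.30% to 54.4% over the groups, while the 5 other islands stay at 4.10% or below in every library.

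Other promoters that carry a maternal imprint gave a frame for the pair. Of 15 such genes, 10 had a promoter level in all libraries and 11 in the pESC and ESC fit. Between pESCs and ESCs all 11 were higher in pESCs, 7 of them by at least 10 points, with a median of 22.6 points against 0.0265 over all promoters and with 0 called (8 had an unadjusted p under 0.05). The differences were widest for Snrpn (43.4 points), which encodes a splicing protein, and for Mest (39.4) and Zrsr1 (38.4), and smallest for Mcts2 (2.23), Gnas (4.22) and Grb10 (4.67); the pair, at 34.1 and 33.4 points, lay between Zrsr1 and Nap1l5 (31.3). Mcts2 and Gnas were low in ESCs and pESCs, at 4.95% and 8.92% in pESCs. From E9.5 to E12.5 all 10 promoters fell, with differences of -23.9 to -13.4 points (median -21.5), and all were called, where 32.2% of all promoters were; after centring 6 were below zero, 4 above, and 0 called. At E12.5 the Peg10 promoter, at 29.6%, was between Zrsr1 (28.4%) and Gnas (30.1%), and the Sgce promoter, at 30.5%, was just above Gnas.

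The same promoters were followed through induction. Between ESC-PGCLCs and ESCs the 10 were 10.5 to 40.9 points higher and 8 were called, where 12.9% of all promoters were; after centring 7 were above zero and 5 called. Between pESC-PGCLCs and pESCs 5 of the 10 were higher, 3 of them by at least 10 points. Of these, Gnas rose by 21.8 points and Mcts2 rose by 32.0, and Plagl1, 14.1 points higher without overlap, did not pass (limma adjusted p = 0.0647). Snrpn fell by 14.9 points. Thus 3 of 10 were called, where 9.23% of all promoters were. After centring 2 were called higher and 5 lower, where 39608 of 45543 calls over all features were lower. The interaction, which contains the pESC and ESC difference, was below zero for all 10, centred or not (median -17.8 points, against -0.385 over all promoters). Zrsr1 (-34.9, limma adjusted p = 0.00721) and Mest (-33.1, adjusted p = 0.0488) passed, where 0.0372% of all promoters did. After centring 1 of the 10 was called.

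**Figure D5:**
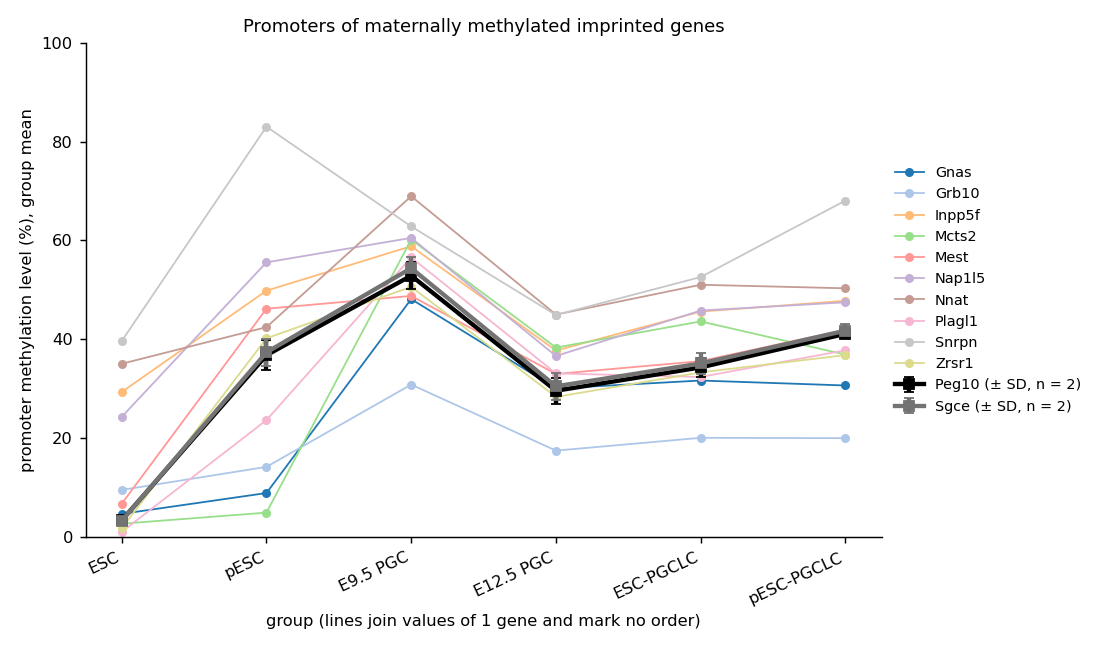
Group means of promoter methylation in percent for Peg10 and Sgce (squares, bars are SD, n = 2) and for the promoters of 10 other maternally imprinted genes. Lines join the values of 1 gene and mark no order of the groups. Peg10, Sgce, Zrsr1 and Mest lie under 7% in ESCs and over 36% in pESCs, while Mcts2 and Gnas stay under 9% in both groups.

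Over the 12 libraries, the promoter closest to the mean of the Peg10 and Sgce promoters among 18454 others was that of Zrsr1, with a root mean square difference of 3.23 points (Pearson r = 0.983, over 12 libraries of 6 groups). It was followed by Mest (5.49 points), Gm27522 (5.84), Plagl1 (6.24) and Mir335 (7.78). Gm27522 and Mir335 lie within Mest, so these 5 promoters stand for 3 loci. The next were Arhgef1, Dvl2, Pidd1, Spns1 and Maml3, at 8.62 to 9.23 points, none of which is in the list of imprinted genes. These 5 had ESC levels of 16.1% to 19.1%, against 3.30% and 3.38% at the pair.

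Relatives of both genes by protein family were also measured. The promoters of the sarcoglycan genes Sgca, Sgcb and Sgcd differed by -2.44 to 1.39 points between pESCs and ESCs, with 0 called and 0 at an unadjusted p under 0.05. Over all 19766 promoters 0 were called in this comparison, and 2054 of 148012 features had an unadjusted p under 0.05. From E9.5 to E12.5 Sgca fell by 15.4 points and was called, and neither Sgcb (-10.03 points) nor Sgcd (-1.45 points) was. Of all promoters 32.2% were called there. Of 11 genes derived from retrotransposon gag sequences, Rtl4, Rtl6 and Rtl10 had promoter levels in all libraries. Between pESCs and ESCs they differed by -1.49 to 0.797 points, with 0 called and 0 at an unadjusted p under 0.05. These counts too stand against 0 called of 19766 promoters.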

How the data were processed

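The 12 libraries were made by reduced representation bisulfite sequencing. According to the study's methods and the submitters' processing notes, the authors aligned reads to mm10 with Bismark 0.16.3 and Bowtie2, kept unique best alignments, removed duplicates and corrected levels for non-conversion against a lambda spike. The deposited values are fractions, 1 per feature and library, namely methylated CG calls over all CG calls; they are printed as percent. The coverage minimum and promoter definition are not given in the sources used here. Counts were not given beside these levels, so the depth is unknown and the planned count test was not used.

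The features of each gene were found by Ensembl identifier, with GENCODE M21 positions. The members and gene lists were chosen with earlier results of these data known. The named genes follow a fixed rule: the members, the listed neighbours, other maternally imprinted genes, relatives and the 10 most alike promoters. Levels were compared with limma 3.58.1 (R 4.3.3) on log2((level + 0.01)/(1 - level + 0.01)) over the features listed in all libraries fitted, using 4 libraries (ESC, pESC) or 8 libraries (PGCs with PGCLCs, or ESCs and pESCs with their PGCLCs), with Benjamini-Hochberg adjustment over all features. A feature was called at an adjusted p under 0.05 and group means at least 10 points apart. SE of a difference in points comes from the 2 libraries of each group. The test was also run on simulated levels, where only features of intermediate mean level were shifted. That run does not cover levels as low as those of ESCs at the promoters. Sequences were read from RefSeq's GRCm38 genome with Python 3.11.15; motifs were searched on both strands. No RefSeq promoter entry was matched for Peg10 or Sgce. Alternatives were another offset, untransformed levels, centring, a fit of all 12 libraries, features with missing levels, a replicate block and leaving out each library. One listed gene is not reported here.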

Additional observations from a re-analysis of the deposited data

Results flagged for a closer look

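The change on induction differed between the cell origins, by the interaction term of the limma fit, at the Sgce promoter with its identical CpG island (-27.4 points, adjusted p = 0.0266) and at the Peg10 promoter (-26.6 points, adjusted p = 0.0279). At the Sgce promoter the mean level went from 3.30% in ESCs to 35.1% in ESC-PGCLCs, and from 37.4% in pESCs to 41.7% in pESC-PGCLCs. At the Peg10 promoter it went from 3.38% to 34.3%, and from 36.8% to 41.1%. The term contains the pESC and ESC difference, 34.1 points (Sgce) and 33.4 points (Peg10), which did not pass in its own fit. Both calls were lost with an offset of 0.1, on untransformed levels and whichever of the 8 libraries was left out.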

How the results depend on the processing

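With 2 libraries a group and unknown depth, precision was set by the spread between libraries alone, and a group left with 1 library was assumed to vary like the others. Over the 6 profiles and 10 comparisons, 315 of 360 values under another setting, and 231 of 264 with a library left out, kept their direction and side of the threshold. Where a value below did not, the cause was not tested.

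In the fit of all 12 libraries both promoters passed between pESCs and ESCs (34.1 points at Sgce, 33.4 at Peg10; 3 profiles called), and no longer passed between pESC-PGCLCs and E12.5 PGCs (11.2 and 11.5 points; 0 profiles), where ESC-PGCLCs also had 0 profiles called. With an offset of 0.1 or untransformed levels the interaction calls were lost at -27.4 (Sgce) and -26.6 points (Peg10), with 0 profiles called.

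Centring each library on its median log2 odds, with levels centred likewise for the 10-point limit, ended these calls, given in log2 odds: E12.5 against E9.5 PGCs, -0.298 at Sgce and -0.272 at Peg10 (3 profiles called); ESC-PGCLCs against E9.5 PGCs, -0.456 and -0.419 (0 called); pESC-PGCLCs against E12.5 PGCs, 0.381 and 0.404 (0 called); and the Peg10 interaction, -3.05 (1 called). It reversed pESC-PGCLCs against E9.5 PGCs (0.0833 at Sgce, 0.132 at Peg10; 1 called), ESC-PGCLCs against E12.5 PGCs (-0.158, -0.148, -0.142 in the 5' UTR and -0.0529 in the Sgce introns; 0 called), and pESC-PGCLCs against pESCs (-0.659, -0.661, -0.539 in the 5' UTR, -0.638 in the exons and -0.684 in the 3' UTR). It also reversed the Peg10 3' UTR between ESC-PGCLCs and ESCs (-0.322) and the Sgce introns between pESC-PGCLCs and E12.5 PGCs (-0.134). Over all features, the share of calls that were higher went from 0.0705% to 72.8% (E12.5 against E9.5), from 0.565% to 79.4% and from 0.314% to 76.3% (ESC-PGCLCs and pESC-PGCLCs against E9.5), from 97.7% to 77.0% and from 96.0% to 67.1% (against E12.5), from 46.9% to 72.8% (pESC-PGCLCs against ESC-PGCLCs), and from 93.8% to 9.97% and from 92.3% to 13.03% (induction of ESCs and pESCs). With an offset of 0.1 it went from 46.9% to 12.5% between the PGCLCs and from 50.0% to 0.0% in the interaction.

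Leaving out a library, so that 1 group keeps 1 library, gave 32.1 to 36.0 points (Sgce) and 31.3 to 35.5 (Peg10) between pESCs and ESCs. Between pESC-PGCLCs and E12.5 PGCs it gave 9.31 to 13.2 (Sgce) and 9.65 to 13.4 (Peg10). Between pESC-PGCLCs and E9.5 PGCs it gave -13.7 to -9.81 at Peg10. In the interaction it gave -29.4 to -25.5 (Sgce) and -28.8 to -24.5 (Peg10). The Peg10 exons ran from -0.745 to 0.867 points between the PGCLCs, and the Sgce introns from -0.165 to 6.34 between pESC-PGCLCs and E12.5 PGCs.

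Counts over all features that moved by more than 1.5 times were 0 to 70 (all 12 libraries) and to at most 742 (a library left out) for pESCs against ESCs; 31238 to 8188 (centred) and 13297 (all 12) for ESC-PGCLCs against E12.5 PGCs; 9740 to 1136, 619 and 10 to 1793 (a library left out) for pESC-PGCLCs; 130 to 1337 (offset 0.1), 1771 (untransformed), 259 (missing levels allowed), 38 (block), 85 (all 12) and 30 to 397 (a library left out) between the PGCLCs; 19923 to 71359 and 13219 to 45543 (centred) on induction, with 12306 to 35492 and 7471 to 9886 with a library left out; and 50 to 10, 15, 82 and 87 (offset 0.1, untransformed, all 12, missing levels allowed), or 0 to 165 with a library left out, in the interaction.

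Replicate numbers are shared between groups, but no label says that they pair samples. Deviations of same-numbered libraries correlated at 0.518 between ESCs and pESCs, at 0.183 between E9.5 PGCs and ESC-PGCLCs, and between -0.0602 and 0.0804 in the 13 other pairs of groups. With the replicate block the promoter calls between pESC-PGCLCs and E12.5 PGCs were lost (11.2 and 11.5 points; 0 profiles called), as was the Peg10 interaction (-26.6 points; 1 called), and no other call of the 6 profiles changed. Of the 10 most alike promoters, 4 were shared with the ranking by Pearson r and 5 with that by log2 odds.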
